A study of Mus musculus with 14 samples.

Results

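The Hox genes of the 4 mouse clusters were read on 14 one-colour expression arrays of intestinal tissue and 1 tumour cell line. Members were all genes whose name on the array is Hox followed by a cluster letter (a to d) and a position number, and 39 of the 36282 gene names met this rule. Cluster a, on chromosome 6, gave 11 genes, cluster b, on chromosome 11, gave 10, and clusters c, on chromosome 15, and d, on chromosome 2, gave 9 each. They were read by 43 probes, and the brightest probe stood for a gene that had 2.

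The groups were small intestine of C57BL/6J mice (3 arrays), adenomas of APCmin/+ mice (3 arrays), the tissue adjacent to the adenomas (2 arrays), colon labelled C57BL/6J (3 arrays) and CT26, an established mouse colon carcinoma line (3 arrays). APCmin/+ mice carry a truncating germline allele of Apc, an inhibitor of Wnt signalling, and form adenomas mainly in the small intestine. All samples were whole tissue or whole cultures, so fewer cells of a type and less RNA per cell cannot be told apart. By the study's sample list the adenoma and adjacent pieces came from 1 mouse, the small intestine arrays from different mice, and 1 of the colon samples from an Apc mutant mouse although its label gives the wild-type strain. Replicates from 1 mouse or 1 line measure the spread between pieces or cultures only.

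Hox genes encode homeodomain transcription factors that set position along the body axis. Within a cluster the genes lie in the order in which they are used from head to tail, so that low position numbers mark anterior and high numbers posterior levels, and in the gut genes of the last positions mark the hindgut. Their proteins bind DNA with cofactors of the TALE class (Pbx, Meis, Pknox). The caudal factors Cdx1 and Cdx2 act upstream of several of them, and retinoic acid, Polycomb and trithorax proteins govern when the clusters open.

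The upstream sequences of Hoxb8 and Hoxd4 are shown because they are the Hox genes with a match to letters that caudal factors prefer. RefSeq promoter sequences matched 22 of the 39 genes. These letters, TTTATNG, were searched on both strands of the 250 bases before each start and occurred in 9.81% of the 32851 promoters listed. Among the Hox genes they occurred in 2, with 3 matches before Hoxb8 and 1 before Hoxd4, all on the strand of the gene and none overlapping. Of all promoters 0.0487% held 3 or more. The share of Hox genes with a match is near that of all promoters, and a match is a description of letters, not of a bound site. Capitals mark the matches.
Hoxb8 upstream (GRCm38.p6, chr11:96281655-96281904, plus strand): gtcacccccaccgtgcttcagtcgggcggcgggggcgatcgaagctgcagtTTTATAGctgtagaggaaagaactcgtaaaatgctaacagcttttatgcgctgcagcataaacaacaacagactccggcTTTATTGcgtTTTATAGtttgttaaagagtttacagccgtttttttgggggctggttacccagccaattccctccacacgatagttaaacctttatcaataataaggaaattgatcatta
Hoxd4 upstream (GRCm38.p6, chr2:74721728-74721977, plus strand): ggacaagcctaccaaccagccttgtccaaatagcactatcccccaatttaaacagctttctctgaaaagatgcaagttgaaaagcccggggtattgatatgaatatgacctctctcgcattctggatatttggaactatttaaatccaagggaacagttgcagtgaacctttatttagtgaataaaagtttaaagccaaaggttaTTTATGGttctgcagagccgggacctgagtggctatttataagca

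Levels are log2 processed intensities minus the 75th percentile of the array, and were compared between groups for 1 probe at a time, never between probes. The scanner software called 46.8% to 58.2% of probes well above background on an array. Colon replicate 3 stood apart. It correlated with the small intestine arrays at 0.960 to 0.966 and with the other colon arrays at 0.937 and 0.939, and its summed level of 10 small intestine enterocyte genes was 2820 times the array's 75th percentile, beside 110 and 187 on the other colon arrays and 2110 to 4440 in small intestine. Its summed level of 8 colonocyte genes was 794, beside 518 and 573 on the other colon arrays and 27.3 to 41.7 in small intestine. Every comparison with colon is therefore given with and without it, and the 3 comparisons with colon share its arrays.

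More Hox genes were detected on colon replicates 1 and 2 than on any other array. Of the 39 genes, 8 were well above background on all 14 arrays, 28 on 1 to 13, and 3 (Hoxb1, Hoxc11 and Hoxc13) on none. Colon replicates 1 and 2 had 31 and 30 Hox genes above background and colon replicate 3 had 19, as against 18 to 21 in small intestine, adjacent tissue and adenoma and 16 to 21 in CT26. Of all probes, 55.34% and 58.17% were above it on colon replicates 1 and 2. The share was 46.85% on colon replicate 3, the lowest of all arrays, and 49.23% to 58.2% outside colon. The gap lay in the 12 genes of positions 10 to 13, of which colon replicates 1 and 2 showed 10 and 8, colon replicate 3 showed 2, and no other array showed more than 3. For the 27 genes of positions 1 to 9 the count was 21 and 22 on colon replicates 1 and 2 and 15 to 21 on all other arrays.

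**Figure D1:**
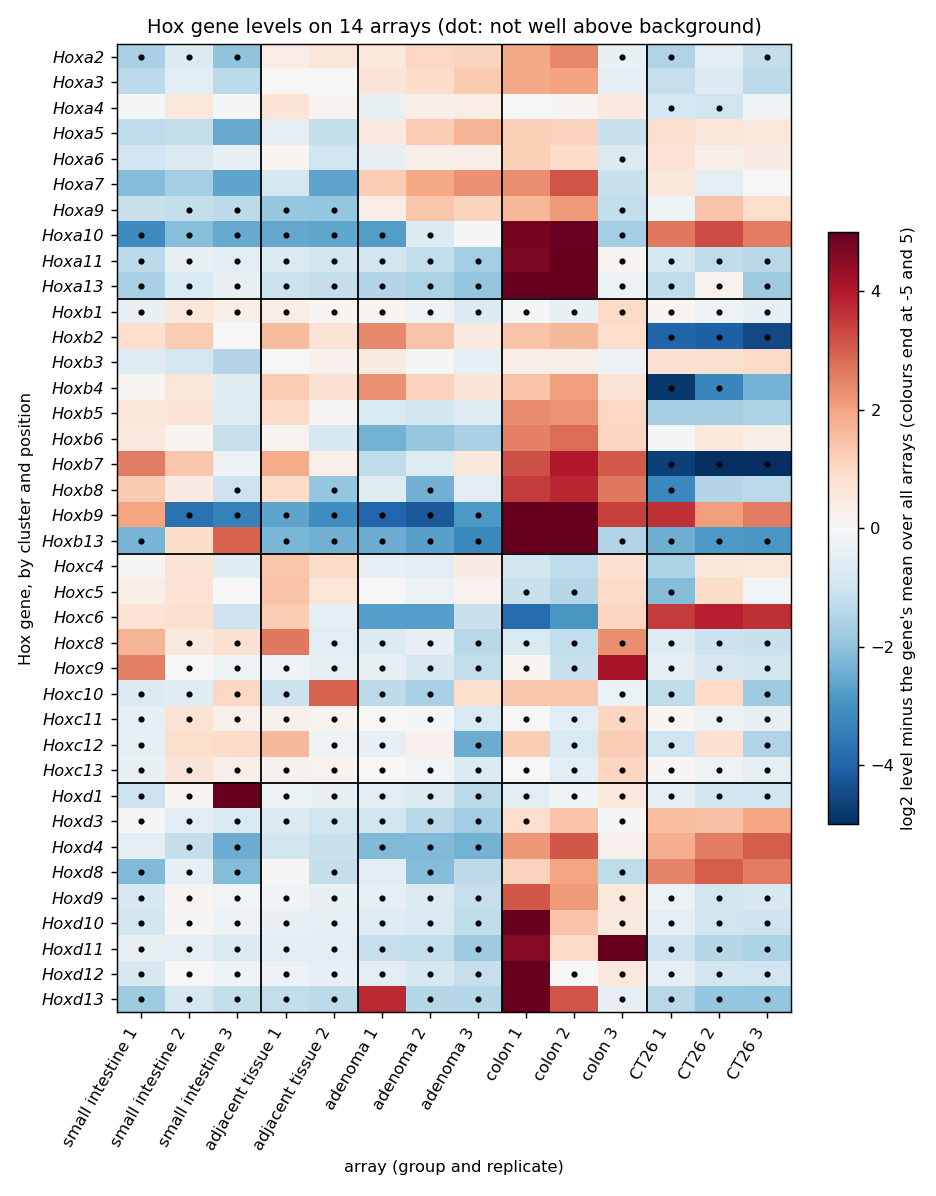
Each row is 1 Hox gene reported here, by cluster and position, each column 1 array, the colour the log2 level minus the mean of that gene over the 14 arrays, and a dot an array on which the gene was not well above background. The posterior ends of clusters a, b and d stand out on colon replicates 1 and 2. Single posterior genes are also high elsewhere, such as Hoxa10 in CT26, Hoxd11 on colon replicate 3 and Hoxd13 on adenoma replicate 1.

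In colon against small intestine no Hox gene was called, a call being a log2 difference of at least 1.2 in size with an adjusted p of at most 0.01 by limma, the study's thresholds. Of 19 genes tested 12 had an unadjusted p under 0.05, all higher in colon, which is 63.16% of them beside 23.86% of all genes, and the lowest adjusted p was 0.0784. Over all genes 0.00483% were called higher and 0.00483% lower. The median log2 difference was 1.65 for the Hox genes tested and -0.08 for all genes. Without colon replicate 3, 13 of 30 Hox genes tested were called higher and none lower, beside 3.33% and 3.91% of all genes, with a median of 2.97 for the Hox genes and -0.05 for all genes. A gene was tested if all arrays of at least 1 group detected it. Leaving out colon replicate 3 let in Hox genes detected on both other colon arrays but not on all small intestine arrays. This favours genes higher in colon, so the counts and medians with and without replicate 3 are of different genes.

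Posterior genes of clusters a and b were among those with the widest gaps, as was Hoxb9, given below. Hoxb13, the last gene of cluster b and a marker of hindgut, had log2 levels of 7.22 and 5.61 on colon replicates 1 and 2 and -5.79, at background, on replicate 3. In small intestine it was at background on replicate 1 (-6.60) and above it on replicates 2 (-3.37) and 3 (-1.31). Leaving out that colon array, it was at least 805.5-fold higher in colon (log2 difference 10.18 ± 1.46 SE, limma adjusted p = 0.00736). The 2 colon arrays lay above all small intestine arrays, while the third lay among them.

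Hoxa10, a posterior gene of cluster a, was at 0.69 and 0.83 on colon replicates 1 and 2 and at background on replicate 3 (-5.82) and on all small intestine arrays (-7.24, -6.23 and -6.60). Without replicate 3 the gap was at least 38.3-fold (7.45 ± 0.34 SE, limma adjusted p = 0.000230). Its neighbours followed the same course. Hoxa11 was at -1.13 and 0.65 on colon replicates 1 and 2 (at least 19.2-fold, limma adjusted p = 0.00183), and Hoxa13 at 1.24 and 0.71 (at least 44.5-fold, limma adjusted p = 0.000376). Both were at background on the other 12 arrays.

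Beside them the antisense transcript of Hoxa11 (Hoxa11os, probe at mm9 chr6:52199709-52199768) was at 5.09 and 4.91 on colon replicates 1 and 2, -3.60 on replicate 3 and -5.08 to -3.00 on every other array. Without that array it was at least 428.6-fold higher than in small intestine (limma adjusted p = 0.000203). A second noncoding gene of cluster a, 2700086A05Rik (Hoxaas3), was at -0.80 and -0.24 on colon replicates 1 and 2 and -5.39 on replicate 3.

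Cluster d was less even between the 2 colon arrays. Hoxd13 was at 2.56 on colon replicate 1, -2.34 on replicate 2 and at background on replicate 3 (-5.89). Hoxd10 was at -1.13 and -4.90, and Hoxd12 at -0.40 on replicate 1 and at background on replicate 2 (-6.40). Colon replicate 1 was the highest in all 3. Hoxd11 was above background on all 3 colon arrays (-1.22, -4.87 and -0.48), highest on replicate 3, and on no other array. Hoxd9 was at -3.31 and -4.29 on colon replicates 1 and 2 and was called higher without replicate 3 (at least 1.62-fold, limma adjusted p = 0.00671).

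Genes of the middle of the clusters were higher in colon as well. Hoxa7 was at 3.55 and 4.41 on colon replicates 1 and 2, 0.14 on replicate 3 and -1.40 to -0.43 in small intestine, so that all colon arrays lay above all small intestine arrays. The gap was 12.2-fold with all arrays (limma adjusted p = 0.124) and 29.7-fold without replicate 3 (4.89 ± 0.39 SE, limma adjusted p = 0.00130). Among the other genes called higher without it were Hoxa2 (at least 5.28-fold), Hoxa3 (8.08-fold), Hoxa5 (7.03-fold), Hoxa6 (3.34-fold), Hoxa9 (at least 8.39-fold) and Hoxd4 (at least 11.4-fold). Hoxa4 was the cluster a gene tested that was not called (log2 difference -0.06 ± 0.28 SE).

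In cluster b none of Hoxb2 to Hoxb9 was called. The folds without colon replicate 3 ran from 1.76 for Hoxb2 to 7.33 for Hoxb6 among genes detected on all arrays of both groups, and were at least 10.4 for Hoxb8 and at least 45.04 for Hoxb9, which were at background on part of the small intestine arrays. From Hoxb3 to Hoxb9, every colon array, replicate 3 included, lay above every small intestine array. How many of all genes were separated in this way was not counted. Hoxc6 was at -4.08 and -3.13 on colon replicates 1 and 2, as against 0.83 on replicate 3 and 0.49, 0.56 and -1.25 in small intestine, and was not called (log2 difference -3.54 ± 0.62 SE without replicate 3, limma adjusted p = 0.0134). Hoxc4 and Hoxc5 were also lower on colon replicates 1 and 2 than on all small intestine arrays, and were not called. Further along cluster c, Hoxc10 was above background on colon replicates 1 and 2 (-4.12 and -4.11) and on no small intestine array. Hoxc12 was above background on colon replicates 1 and 3 (-3.44 and -3.43) and small intestine replicates 2 and 3 (-3.79 and -3.69), and was not tested.

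**Figure D2:**
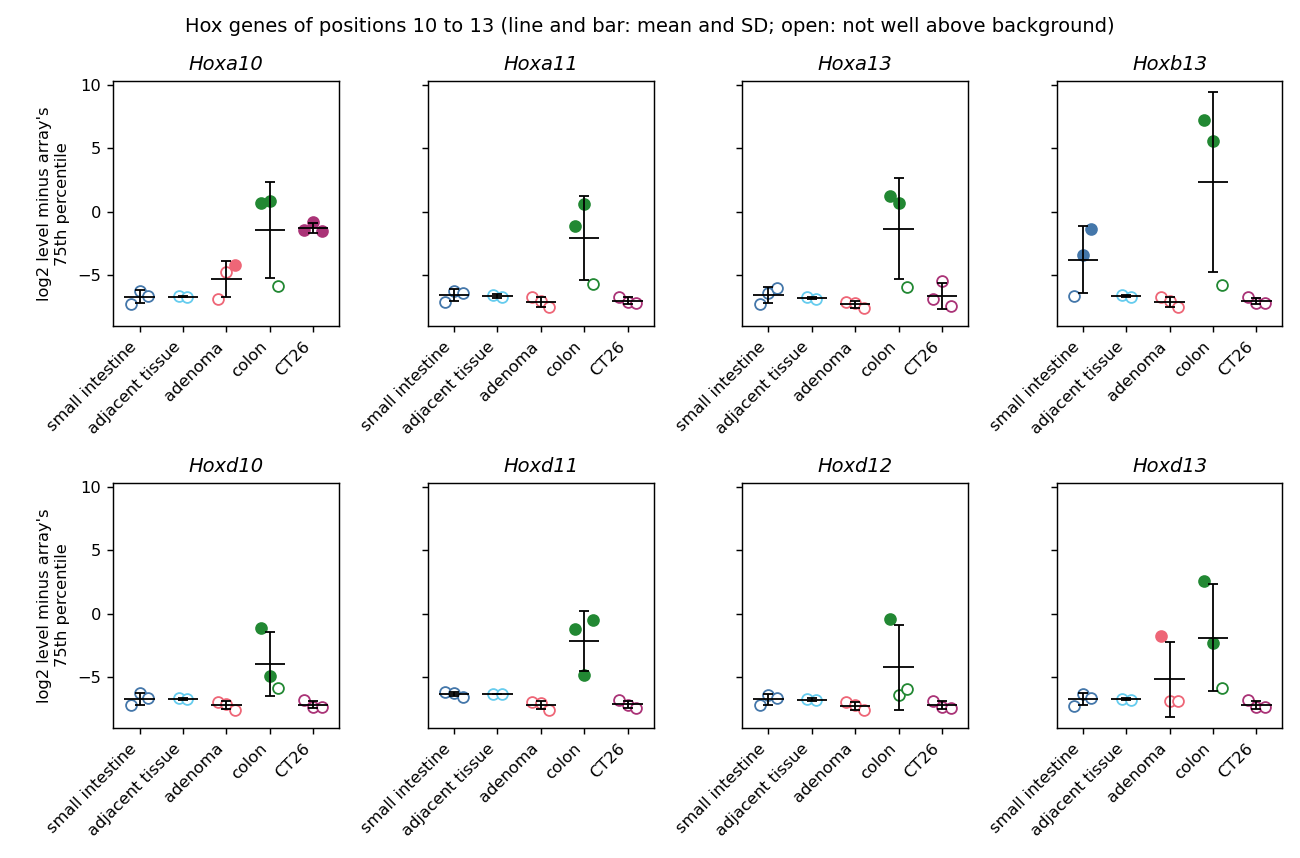
Each panel is 1 gene of positions 10 to 13 in clusters a, b or d, the vertical axis its log2 level minus the 75th percentile of the array, points the arrays of a group, lines and bars mean and SD, open points arrays not well above background. The genes of these positions in cluster c are not drawn. Colon replicates 1 and 2 are high in most panels (Hoxb13 at 7.22 and 5.61), and of the genes drawn replicate 3 is above background for Hoxd11 only.

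Hoxb9, Hoxc8 and Hoxc9 were above background on small intestine replicate 1 and not on replicates 2 and 3. Hoxa9 was also above it on replicate 1 only, though its levels were even (-4.12, -4.19 and -4.30). Hoxd9 was at background on all 3. Hoxb7 (0.42, -0.76 and -2.41), Hoxb8 (-2.10, -2.98 and -4.43) and Hoxd4 (-3.60, -4.34 and -5.63) also fell from replicate 1 to replicate 3, while Hoxb13, given above, rose. Hoxb9 was at -0.63 on small intestine replicate 1 and at background on replicates 2 and 3 (-6.33 and -6.01). Hoxc9 was at -3.74 on replicate 1, at background on the other small intestine arrays, and above background elsewhere only on colon replicate 3 (-2.13). Hoxc8 was above background on small intestine replicate 1 (-4.49) and adjacent tissue replicate 1 (-3.53) only.

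Some markers of the ileum also differed between these arrays. Fabp6, the ileal bile acid binding protein, was at 9.95 on small intestine replicate 1, 1.60 and -1.74 on replicates 2 and 3, 8.12 and -0.83 on adjacent replicates 1 and 2, and 11.1 on colon replicate 3. Slc10a2, the ileal bile acid transporter, was at 5.56 on small intestine replicate 1, -1.94 and -2.11 on replicates 2 and 3, and 6.91 on colon replicate 3. Of the other 3 genes of the ileum list Cubn was even in small intestine (6.81, 6.72 and 6.36), and Slc51a and Slc51b were highest on replicate 1 by less than 2 on the log2 scale. The Hox genes did not follow Fabp6 on every array, since Hoxb9 and Hoxc9 were at background on adjacent replicate 1, and Hoxb9 was highest on colon replicates 1 and 2, where Fabp6 was at 1.84 and 1.42. The summed level of 5 proximal small intestine genes was 1280 and 1450 on small intestine replicates 2 and 3, and lower on replicate 1 than on either. The part of gut region in these Hox differences was not tested.

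**Figure D3:**
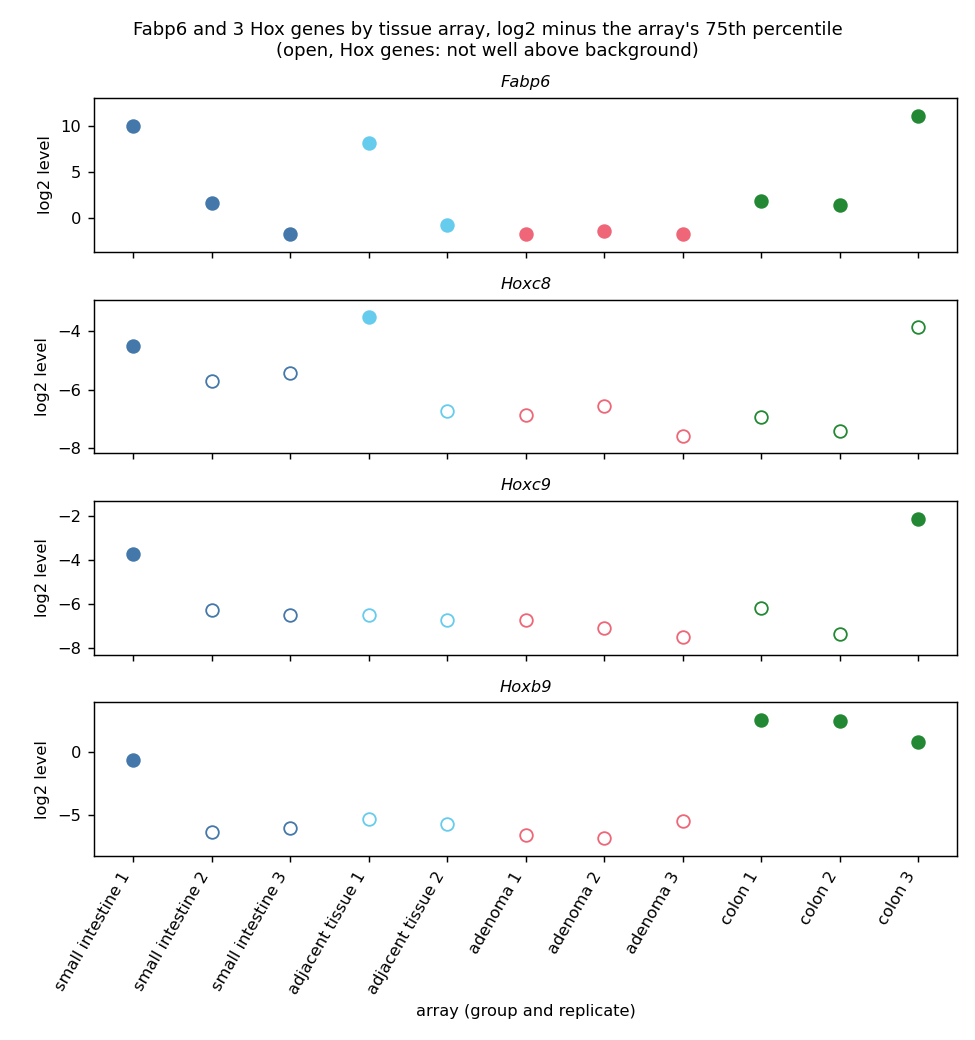
Each panel gives 1 gene on the 11 tissue arrays, the vertical axis being the log2 level minus the 75th percentile of the array; open points of Hox genes were not well above background. Fabp6 is highest on small intestine replicate 1, adjacent replicate 1 and colon replicate 3 (9.95, 8.12 and 11.1), and Hoxc9 is above background on the first and the last of these only.

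In adenoma against small intestine 5 of 17 Hox genes tested were called higher and none lower, beside 11.3% and 11.1% of all genes. All 5 belong to cluster a. The median log2 difference was 0.77 for the Hox genes tested and -0.15 for all genes. At an unadjusted p under 0.05 there were 9 higher and 3 lower, which is 70.59% of the Hox genes tested beside 60.01% of all genes.

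Hoxa7 was the strongest. It was at 2.52, 3.19 and 3.52 in adenomas, 0.38 and -1.37 in adjacent tissue and -0.90, -0.43 and -1.40 in small intestine, with no overlap between adenomas and the arrays of adjacent tissue or small intestine. It was 15.9-fold higher than in small intestine (3.99 ± 0.34 SE, limma adjusted p = 0.000227). Against adjacent tissue the gap was 11.9-fold and was not called (limma adjusted p = 0.0138).

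Hoxa5, which is needed for normal gut and lung development, was at -1.12, -0.35 and 0.06 in adenomas and -2.92, -2.80 and -4.13 in small intestine, a 7.02-fold gap (limma adjusted p = 0.00229). The adjacent arrays, at -2.10 and -2.82, lay between, with replicate 2 inside the range of small intestine. Hoxa3 was at 0.03, 0.31 and 0.72 in adenomas and -1.89, -1.15 and -1.90 in small intestine, a 4.0-fold gap (limma adjusted p = 0.00144). Both adjacent arrays were at -0.57, between the groups.

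Hoxa9, a gene also known from leukaemia, was at -2.62, -1.60 and -1.86 in adenomas and -4.12, -4.19 and -4.30 in small intestine, where 1 of 3 arrays was above background. It was at least 4.44-fold higher than in small intestine (limma adjusted p = 0.000960) and at least 5.49-fold higher than in adjacent tissue (limma adjusted p = 0.00619), and its second probe was also higher on all adenoma arrays than on all arrays of both groups. Hoxa2 was at -3.72, -3.22 and -3.15 in adenomas and at background in small intestine (at least 2.20-fold, limma adjusted p = 0.00207), while both adjacent arrays were above background at -3.86 and -3.64.

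Some genes of clusters b and c lay lower in adenomas without being called with all arrays and the main processing. Hoxb6 and Hoxc6 were called lower with normexp background correction, and Hoxb5, Hoxb6 and Hoxc6 without small intestine replicate 3. Hoxb6 was at -3.35, -2.86 and -2.59 in adenomas, below all small intestine arrays (-0.50, -0.89 and -2.14) and both adjacent arrays (-0.84 and -1.79), with a log2 difference from small intestine of -1.76 ± 0.43 SE (limma adjusted p = 0.0137). Hoxc6 was at -2.98, -2.99 and -1.33, below small intestine by 2.37 ± 0.63 SE on the log2 scale (limma adjusted p = 0.0180). Hoxb5 was at -2.71, -2.85 and -2.59, below all small intestine and adjacent arrays.

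In adenoma against adjacent tissue 1 of 18 Hox genes tested was called higher, Hoxa9, and 1 lower, Hoxd4, beside 2.4% and 1.78% of all genes. Hoxd4 was at background in all adenomas (-5.36, -5.33 and -5.52) and at -4.08 and -4.24 in adjacent tissue (at least 1.81-fold, limma adjusted p = 0.00797). In adjacent tissue against small intestine none of 17 was called by limma, beside 0.00922% of all genes called higher and 0% lower. At an unadjusted p under 0.05 there were 5, all higher, which is 29.41% beside 30.63% of all genes. The 3 comparisons of these groups share arrays and are not independent.

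Cell type markers moved between these groups too. The summed level of 8 gastric gland genes was 358 to 635 times the 75th percentile in adenomas and at most 15.4 in adjacent tissue and small intestine, and that of 8 smooth muscle genes was 96.9 to 118 in adenomas and 141 to 595 in the others. For 8 fibroblast genes it was 90.6 to 105 in adenomas and 13.3 to 70.2 in the others. All 8 epithelial genes were above background on each of these arrays. The part of cell makeup in the Hox differences was not tested.

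**Figure D4:**
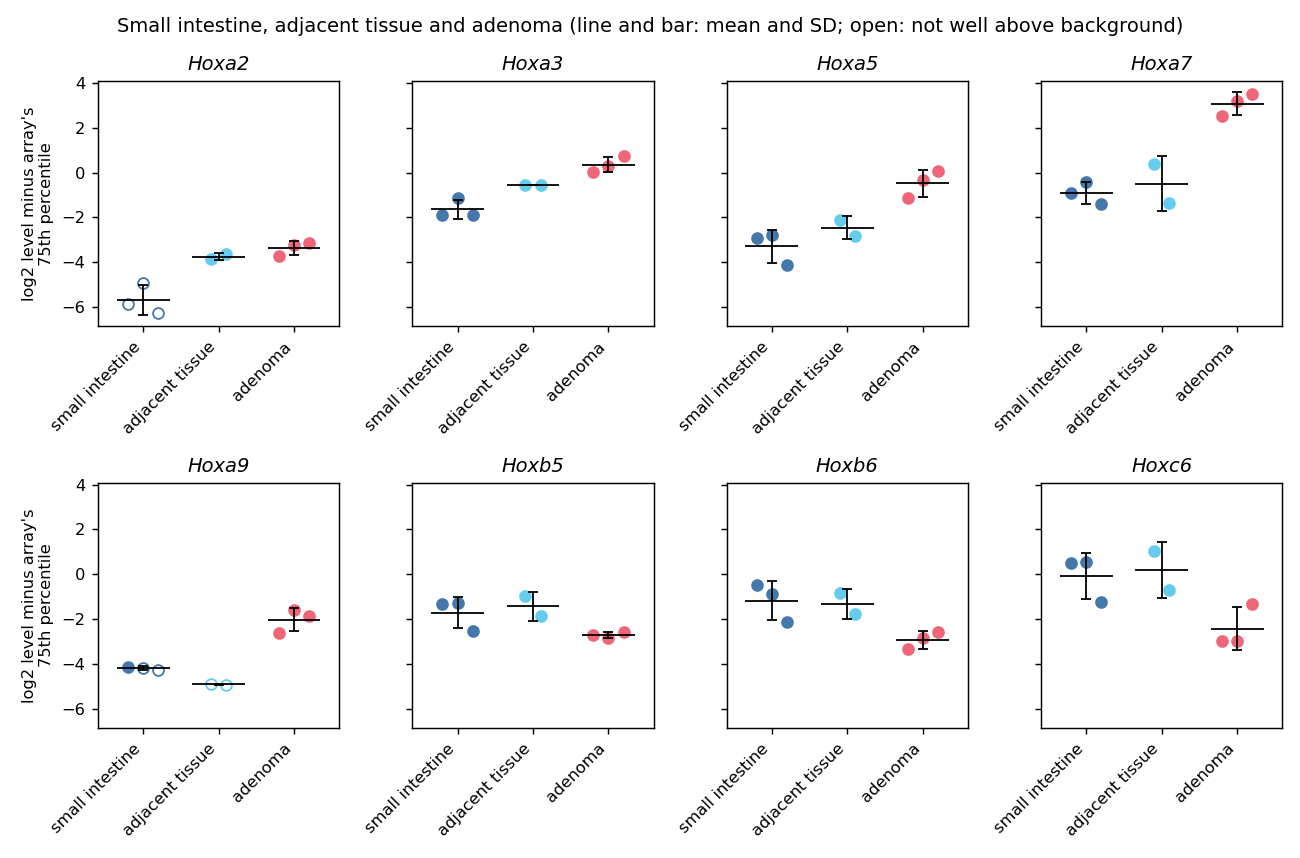
Each panel is 1 gene in small intestine, adjacent tissue and adenoma, the vertical axis its log2 level minus the 75th percentile of the array, points the arrays, lines and bars mean and SD, open points arrays not well above background. The 5 cluster a genes lie higher in adenomas (Hoxa7 at 2.52 to 3.52), while Hoxb5, Hoxb6 and Hoxc6 lie lower. These last were not called with all arrays and the main processing.

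The adenomas were also set against colon. With all arrays 4 of 21 Hox genes tested were called lower in adenomas and none higher, beside 1.62% and 2.07% of all genes. The 4 are neighbours in cluster b. The calls depended on the fit, since 1 was left with slide as a block, none with the replicate number as a block, and none without any 1 of the adenoma arrays. Without colon replicate 3, 11 of 30 were called lower and 1 higher, beside 6.68% and 5.02% of all genes. The 30 include Hox genes tested only because both remaining colon arrays detected them, which favours genes lower in adenomas.

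Hoxb9 was at 2.48, 2.45 and 0.79 in colon and at background in all adenomas (-6.56, -6.81 and -5.47). It was at least 121-fold lower in adenomas (-8.19 ± 0.58 SE, limma adjusted p = 0.00188). Hoxb6 was 17.0-fold lower (limma adjusted p = 0.00672), Hoxb7 14.7-fold (limma adjusted p = 0.00832) and Hoxb8 at least 18.3-fold (limma adjusted p = 0.00806), all 3 colon arrays lying above all adenomas for each. The cluster a genes Hoxa5 and Hoxa7 were not called, with log2 differences of 0.76 ± 0.69 SE and 0.38 ± 1.08 SE.

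Without colon replicate 3, Hoxa10, Hoxa11, Hoxa13, Hoxb5, Hoxb13, Hoxd4 and Hoxd9 were called lower as well. Hoxb13 was at background in all adenomas (at least 2747-fold lower) and Hoxa13 too (at least 63.4-fold). Hoxd4, whose upstream sequence is printed above with that of Hoxb8, was at least 22.6-fold lower (limma adjusted p = 0.000548). Hoxc5 was the gene called higher (at least 2.10-fold). Hoxd13 was above background on adenoma replicate 1 (-1.75) and at background on the other adenomas (-6.89 and -6.90), and was not called.

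Cell type markers differed here too. The summed level of 8 smooth muscle genes was 96.9 to 118 in adenomas and 528 to 730 in colon, with 6 of the 8 called lower in adenomas. For 8 colonocyte genes it was at most 16.3 in adenomas and 518 to 794 in colon, with 4 called lower, and for 8 gastric gland genes 358 to 635 and at most 0.997, with 7 called higher. Of all genes 1.62% were called lower and 2.07% higher in this comparison. The part of cell makeup in these Hox differences was not tested.

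In CT26 against colon 6 of 22 Hox genes tested were called lower and 2 higher, beside 16.2% and 21% of all genes. On the 2 remaining colon arrays, 18 of 30 were called lower and 2 higher, beside 19.4% and 20.1%. The median log2 difference was -0.53 with all arrays and -2.55 without replicate 3 for the Hox genes, and 0.32 for all genes in both. The 30 include Hox genes tested only because both remaining colon arrays detected them, which favours genes lower in CT26.

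Of the 6 genes called lower, 5 lie in cluster b and the other is Hoxd11. Hoxb7 was at background on all CT26 arrays (-6.78, -7.12 and -7.19) and at 1.06, 1.88 and 0.96 in colon (at least 77.7-fold lower, -8.33 ± 0.34 SE, limma adjusted p = 2.03e-06). Hoxb2 was at background in CT26 too (at least 11.9-fold lower), Hoxb4 was above it on 1 of 3 arrays (at least 17.8-fold) and Hoxb8 on 2 of 3 (at least 24.9-fold). Hoxb5 was 11.4-fold lower, at -3.61, -3.60 and -3.50.

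Other genes of cluster b stayed above background. Hoxb6 was at -1.02, -0.46 and -0.67 and Hoxb9 at 1.04, -0.51 and -0.03 in CT26, on either side of Hoxb7 and Hoxb8. Neither was called with all colon arrays, and without replicate 3 Hoxb6 was 5.32-fold and Hoxb9 4.91-fold lower. Hoxb3 stood at -1.44, -1.38 and -1.25 by its brightest probe, above all colon arrays, while its second probe (mm9 chr11:96209002-96209061) was at background in CT26 (-6.85, -5.31 and -5.40) and above it in colon (-2.12, -1.38 and -3.29). The 2 probes of Hoxb3 thus disagree in direction, and which of them follows the gene was not tested.

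Hoxc6 rose in CT26. It was at 3.27, 3.65 and 3.44 in CT26 and -4.08, -3.13 and 0.83 in colon (47.8-fold, limma adjusted p = 0.00450, and 133-fold without colon replicate 3). Its CT26 levels lay above those of all 11 tissue arrays. The call was lost on leaving out colon replicate 1, colon replicate 2 or any 1 CT26 array.

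Among the posterior genes Hoxa10 remained above background in CT26, at -1.45, -0.83 and -1.52, below colon replicates 1 and 2 and above replicate 3. Its log2 difference from colon was 0.16 ± 1.62 SE with all arrays and -2.03 ± 0.32 SE without replicate 3 (limma adjusted p = 0.00167). Hoxa11, Hoxa13, Hoxb13, Hoxd9, Hoxd10, Hoxd11 and Hoxd13 were at background on all CT26 arrays. Leaving out colon replicate 3, they were lower by at least 26.8-fold for Hoxa11, 62.0-fold for Hoxa13, 2687-fold for Hoxb13 and 34.0-fold for Hoxd13. Hoxd11 was called with all arrays (at least 6.91-fold lower, limma adjusted p = 0.00501), a call lost on leaving out colon replicate 1 or any 1 CT26 array.

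In cluster d, Hoxd3, Hoxd4 and Hoxd8 were above background on all CT26 arrays, Hoxd4 at -1.34, -0.57 and -0.11 beside -0.99, -0.04 and -2.89 in colon, and none of the 3 was called. Hoxd1 was at background in CT26. The noncoding Hoxd3os1 was at -2.42, -2.0 and -1.91 in CT26 and -5.84 to -5.69 in colon, where it was at background (at least 5.23-fold higher, limma adjusted p = 3.99e-05).

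CT26 is a culture of 1 cell type and colon is a whole tissue. The summed level of 8 smooth muscle genes was 10.9 to 32.2 in CT26 and 528 to 730 in colon, and that of 8 epithelial genes 30.5 to 54.8 and 1300 to 2380. In CT26 these sums came mostly from Smtn (4.95, 3.36 and 3.64) and Krt18 (5.77, 4.92 and 5.05) respectively. The summed level of 8 fibroblast genes went the other way, 216 to 313 in CT26 and 35.5 to 77.5 in colon, with Col1a2 at 7.7, 8.08 and 8.12 in CT26. Of these 8 genes 2 were called higher and 3 lower, beside 21% and 16.2% of all genes. The part of cell makeup in the Hox differences was not tested. CT26 comes from BALB/c mice, so that strain and line cannot be told apart.

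**Figure D5:**
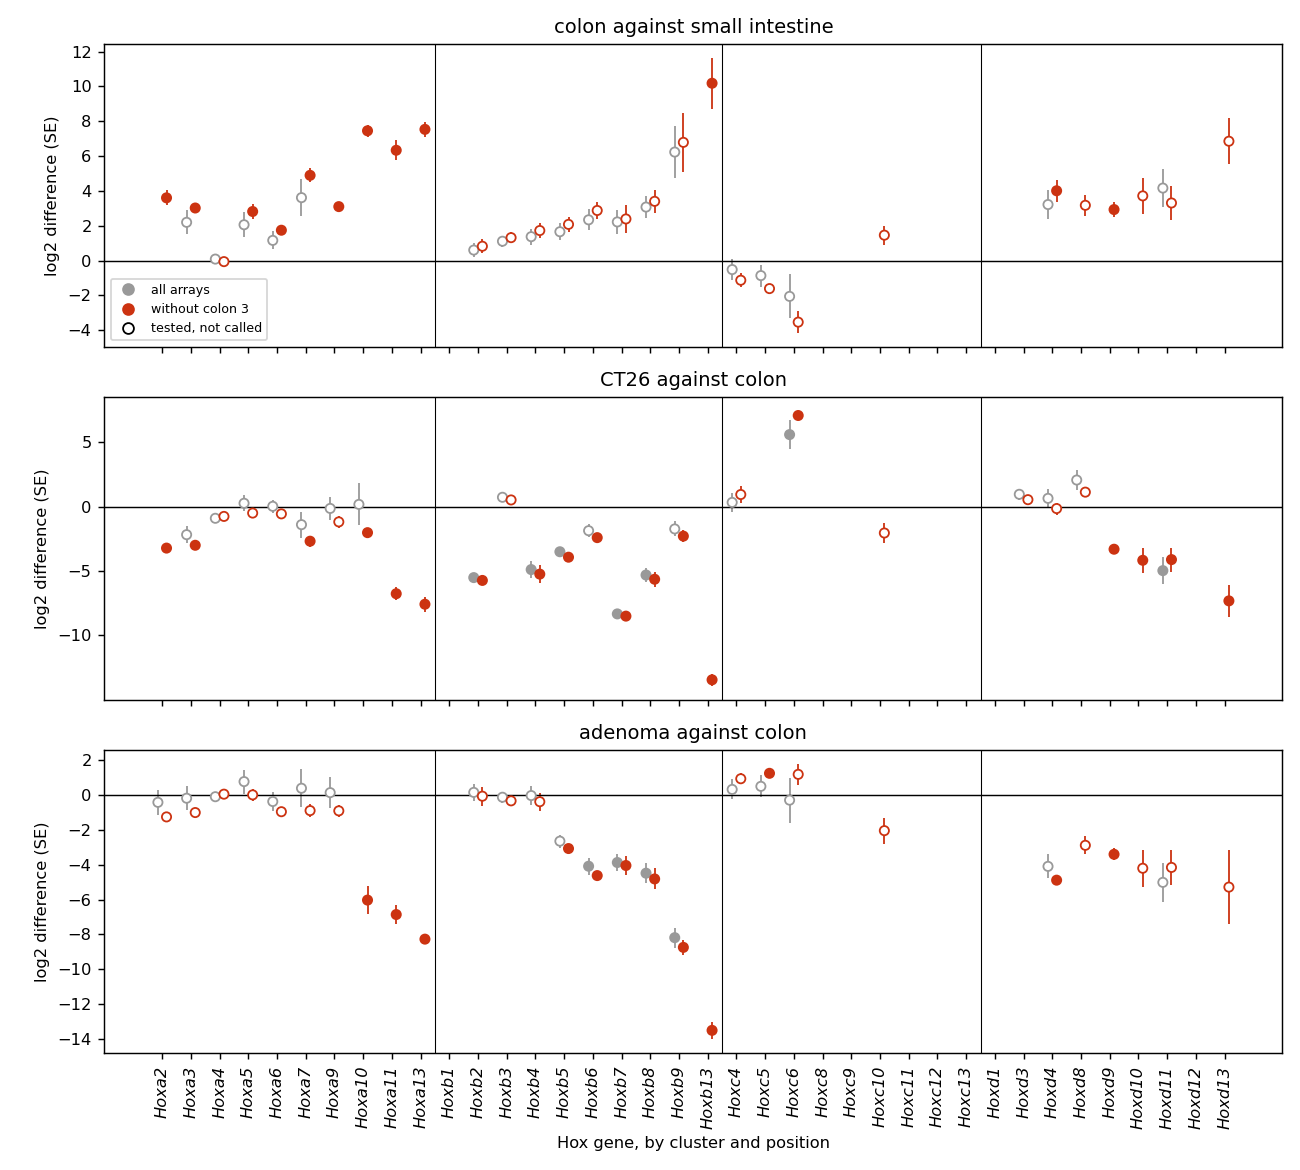
Each panel is 1 comparison, the horizontal axis the Hox genes reported here by cluster and position, the vertical axis the log2 difference with its SE, filled points genes called, grey all arrays and red without colon replicate 3. The posterior genes of cluster a and Hoxb13 have wide differences once colon replicate 3 is left out, and Hoxc6 is the highest point in CT26 against colon. Where a group was at background the plotted difference is the fitted value, not a measured size.

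Genes that act with or upstream of Hox genes were read from fixed lists. Of 9 TALE cofactors 2 were called higher in adenoma against small intestine and none lower, beside 11.3% and 11.1% of all genes. They were Meis2, by 2.76 ± 0.27 SE, and Pbx3, by 1.81 ± 0.21 SE on the log2 scale. The median over the list was -0.28. Meis2 and Pbx3 were also called higher against adjacent tissue, where 2.4% of all genes were called higher. In CT26 against colon 1 of 8 tested was called higher (Meis3, 1.44 ± 0.29 SE) and 2 lower, Meis1 by at least 50.2-fold and Pknox2 by at least 4.7-fold, both at background in CT26. Over all genes 21% were called higher and 16.2% lower.

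Of 6 caudal and ParaHox genes 4 were tested in adenoma against small intestine. Of these 2 were called lower and 1 higher, beside 11.1% and 11.3% of all genes. Cdx1 and Cdx2 were lower, with log2 differences of -1.75 ± 0.23 SE and -1.41 ± 0.22 SE. Pdx1, a factor of pancreas and duodenum, was higher from background in small intestine (at least 10.8-fold). Against colon Cdx1 was called lower in adenomas (-2.36 ± 0.28 SE). In CT26 Cdx1 was at background (at least 3351-fold lower than colon) and Cdx2 was lower (-8.27 ± 0.44 SE). In colon against small intestine neither was called.

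Of 11 retinoic acid genes tested in adenoma against small intestine 6 were called higher and 1 lower, beside 11.3% and 11.1% of all genes, and 4 were not called. The median log2 difference was 1.65. Among the widest were Cyp26a1, which degrades retinoic acid (at least 6.11-fold, at background in small intestine), the receptor Rarb (3.81 ± 0.30 SE) and Aldh1a3, which makes retinoic acid (3.34 ± 0.38 SE). In CT26 against colon 2 of 10 were called higher and 3 lower, beside 21% and 16.2% of all genes.

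Polycomb and trithorax genes were read the same way. Of 16 Polycomb genes tested in CT26 against colon 8 were called higher and 1 lower, with a median of 1.34, beside 21% and 16.2% of all genes, the widest being Phf19 (4.64 ± 0.42 SE), Bmi1 (3.31 ± 0.29 SE) and Jarid2 (-3.19 ± 0.59 SE). Of 9 trithorax and demethylase genes 3 were called higher and none lower. In adenoma against small intestine 1 of 16 Polycomb genes was called, Phf19 (higher), and none of 8 trithorax genes. Of all genes 11.3% were called higher and 11.1% lower there.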

How the data were processed

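Total RNA of 14 samples was labelled with Cy3 and hybridised to one-colour Agilent mouse arrays. The deposited scanner files, from Feature Extraction 10.7.3.1 with probe positions on mm9, hold processed intensity per spot, background-corrected by the authors' software. The authors' deposited table holds normalized log2 values, used as an alternative, and columns of their own comparisons (fold changes and p-values), which were not used, nor were 28 flag and detection columns. Control spots and outlier flags were left out, log2 intensity minus the 75th percentile of each array was taken, and spots of a probe were averaged. RefSeq accessions named 26582 of 55681 probes and 29099 kept the file's name.

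Groups were compared in 6 pairs with limma 3.58.1 in R 4.3.3, on the arrays of the pair, over probes that all arrays of 1 or both groups detected above background, with Benjamini-Hochberg adjustment over them. Calls needed a log2 difference of 1.2 and an adjusted p of 0.01, as in the study's methods. Where a group was not above background on all its arrays, folds are bounds against the lowest signal above background. The number of arrays limits the precision. The code was tested on simulated data.

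Values on each array are given for genes called or not overlapping between groups, and the others by counts and ranges. Some named items are not reported here, though counts include them. Members and lists were chosen with earlier results of these data known. Of 11 noncoding genes listed 3 were found. Alternatives were normalization, background correction (normexp, offset 50), filter, floor, samples in the fit, slide and replicate blocks, thresholds and leaving out each array.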

Additional observations from a re-analysis of the deposited data

How the results depend on the processing

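The number of Hox genes called moved with the samples and the filter. In colon against small intestine it was 0, 3 with all 5 groups in 1 fit, 0 to 13 leaving out 1 array (13 without colon replicate 3), and 22 with all groups and no colon array 3, an alternative chosen after seeing the data. In adenoma against small intestine it was 5, 3 with the authors' table, the stricter filter or all 5 groups, 11 at an adjusted p of 0.05 with no minimum fold, and 3 to 8 leaving out 1 array (8 without small intestine replicate 3, 3 without adenoma replicate 2). Normexp also gave 5, but with Hoxb6 and Hoxc6 lower in place of Hoxa2 and Hoxa9 higher. In adenoma against adjacent tissue it was 2, 1 with the authors' table, normexp, quantile normalization or the floor, 0 with no filter, the stricter filter, all 5 groups or slide as a block, 8 at an adjusted p of 0.05, and 0 to 2 leaving out 1 array (0 without adenoma replicate 2 or 3). The genes changed as well. The 1 gene was Hoxa7 with the authors' table and normexp, and Hoxa9 with quantile normalization and the floor. Leaving out adjacent replicate 2 called Hoxb5 and Hoxc8, both lower. Hoxd4 kept its call only when any probe of a gene counted or at an adjusted p of 0.05. In CT26 against colon it was 8, 2 with the stricter filter, 6 to 20 leaving out 1 array (20 without colon replicate 3) and 18 with all groups and no colon array 3. In adenoma against colon it was 4, 1 with no filter or slide as a block, 7 with all 5 groups or at an adjusted p of 0.05, 14 with all groups and no colon array 3, and 0 to 12 leaving out 1 array (0 without any 1 adenoma, 12 without colon replicate 3). The cause was not tested.

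With the replicate number as a block 0 Hox genes were called in adenoma against adjacent tissue, also by the numbers in the titles, and 0 in adenoma against colon. Deviations of same-numbered arrays from their group means correlated at -0.322 to 0.291. With so few arrays in a group, these values cannot show whether same-numbered arrays share a source. Hoxa10 in CT26 against colon, 0.16 on the log2 scale and not called, turned to -2.03 without colon replicate 3 and with all groups and no colon array 3, -0.57 with the floor, -0.77 with normexp, -0.29 with slide as a block and with the authors' table, and -0.05 without CT26 replicate 2, and ran from -2.03 to 1.29 leaving out 1 array. Over single genes 465 values kept direction and side of the threshold, 39 passed it, 97 lost it and 7 turned.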

Other observations

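Single arrays held Hox genes that their group did not. Hoxd1, the most anterior gene of cluster d, was at 0.46 on small intestine replicate 3 and at background on the other 13 arrays (-7.63 to -5.79). Hoxc10 was at -2.56 on adjacent tissue replicate 2 and at background on adjacent replicate 1 (-6.58). Hoxd13 was at -1.75 on adenoma replicate 1 alone of the adenomas.

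Gpx5, an epididymal glutathione peroxidase, was at 3.62 and 4.29 in adjacent tissue and 1.35 to 2.13 in adenomas, and at -7.36 to -5.63 on all other arrays. The other 7 genes of the epididymis list did not share this, with Crisp1 at -7.60 to -5.86 on every array. No comparison of Hox genes was made along this difference.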
